A study of Mus musculus with 2 samples.

Results

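The genes described here are Meis1, Meis2, Meis3, Pbx2, Pbx3, Pbx4, Pknox1 and Pknox2, which code for DNA-binding cofactors of Hox proteins. The rule that picks them is a list of names and uses no measured value, although the list was drawn up with earlier results of these data known. They are 8 of 43346 mouse genes and 80 of 103639 mouse transcripts in the tables. The data are total RNA-seq of the neural tube, the embryonic forerunner of brain and spinal cord, from mouse embryos of strain B6NCrl at embryonic day 12.5. The labels give 1 group without treatment, with 2 replicate libraries. Replicate 1 pools tissue of 120 embryos and replicate 2 of 88, and each pool holds both sexes. Library input was 10 ng of long RNA, with spike-in controls added. Mouse genes received 31610805 expected counts in replicate 1 and 33530172 in replicate 2.

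MEIS, PBX and PREP proteins (the PREP proteins are the products of the Pknox genes) belong to the TALE class of homeodomain proteins, named for a loop extension between the first helices of the homeodomain. Hox proteins bind DNA with little selectivity on their own, and PBX and MEIS or PREP partners join them in complexes that bind longer sites. PBX proteins pair with MEIS or PREP through their amino-terminal parts, and this pairing keeps PBX in the nucleus. In the embryonic hindbrain and spinal cord these complexes act on Hox genes themselves and on genes of segment and motor neuron identity.

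The loop that gives the class its name is coded by a proline, a tyrosine and a proline codon, which all 8 genes share and which mark them as members of the class. The stretches of 63 bases printed here are taken 5′ to 3′ from GENCODE M21 transcripts on GRCm38. Capitals mark the 9 bases of those codons, which start at codon 27 of a homeobox taken as 63 codons.
Meis1: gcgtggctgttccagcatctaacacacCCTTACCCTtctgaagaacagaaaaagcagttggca
Meis2: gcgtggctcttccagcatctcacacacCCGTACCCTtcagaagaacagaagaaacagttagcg
Meis3: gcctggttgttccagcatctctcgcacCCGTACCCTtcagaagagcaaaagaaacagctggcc
Pbx2: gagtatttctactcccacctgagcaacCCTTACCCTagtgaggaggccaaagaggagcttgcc
Pbx3: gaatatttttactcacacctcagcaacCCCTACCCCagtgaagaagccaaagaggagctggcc
Pbx4: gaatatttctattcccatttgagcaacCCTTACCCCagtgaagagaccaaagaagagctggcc
Pknox1: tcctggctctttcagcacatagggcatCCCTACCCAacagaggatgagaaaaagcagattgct
Pknox2: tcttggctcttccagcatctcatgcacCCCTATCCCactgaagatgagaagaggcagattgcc
In the 3 PBX genes the stretch lies in 1 exon, at chr17:34594628-34594690 (plus strand) for Pbx2, chr2:34204807-34204869 (minus strand) for Pbx3 and chr8:69866514-69866576 (plus strand) for Pbx4. In the MEIS and PREP genes an intron interrupts it. Over the whole homeobox of 189 bases, Meis1 and Meis2 were identical at 84.1% of bases, Pbx2 and Pbx3 at 82.5%, and Pknox1 and Pknox2 at 78.3%. Across classes, Meis2 matched Pknox2 at 71.4% and Pbx3 at 50.8% of bases, and Meis1 matched Pbx4 at 44.4%, the lowest of the 28 pairs.

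All 8 genes were detected at 1 TPM (a transcript level corrected for length and depth) or more in both libraries, as were 35.0% of all mouse genes. Their levels summed to 615 TPM in replicate 1 and 617 TPM in replicate 2. The median of the 8 was 57.8 TPM in replicate 1 and 57.0 TPM in replicate 2, against 16.6 and 17.0 TPM for all genes that averaged 1 TPM or more. The MEIS genes held most of this sum, 67.4% in replicate 1 and 67.8% in replicate 2. Pbx2, Pbx3 and Pbx4 together held 21.3% and 20.3%, and the Pknox genes 11.4% and 11.9%. PBX shares here cover those 3 genes only. In bulk tissue, a lower level can come from fewer expressing cells or from less RNA in each, and these cannot be told apart.

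**Figure D1:**
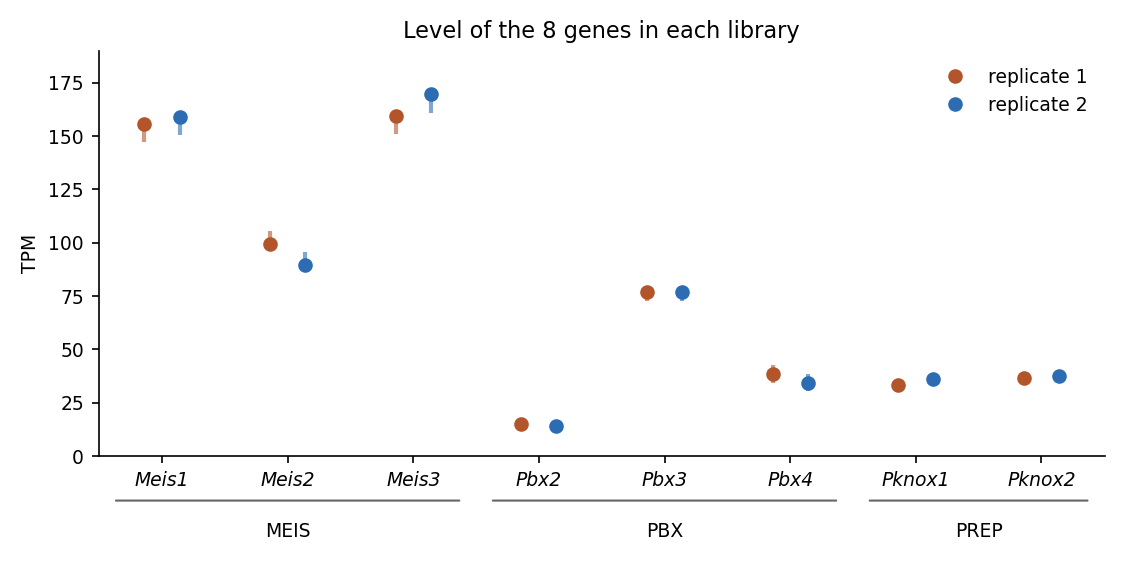
Level of each gene in TPM (vertical axis) in replicate 1 (left point) and replicate 2 (right point), with the deposited credibility interval as a bar. Meis1 and Meis3 lie above 155 TPM in both libraries, and Pbx2 lies lowest, at 15.2 and 14.1 TPM.

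Meis1 and Meis3 were the highest of the 8. Meis1, a cofactor gene at chr11:18879817-19018985 on the minus strand, was at 155.7 TPM in replicate 1 and 159.0 TPM in replicate 2 (157 ± 2.34, SD, n = 2). Meis3, known in frog embryos for posterior neural patterning, lies at chr7:16175090-16186504 on the plus strand and was at 159.4 and 169.5 TPM (164 ± 7.13, SD, n = 2). The lowest library of Meis3 lay above the highest of Meis1 by less than 1 TPM, so their order rests on a small margin.

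Meis2, a MEIS gene with known roles in limb, eye and neural crest development, lies at chr2:115863064-116065839 on the minus strand. It was at 99.2 TPM in replicate 1 and 89.6 TPM in replicate 2 (94.4 ± 6.75, SD, n = 2), below both other MEIS genes in each library. For Meis1 the deposited TPM fell outside its own deposited interval in both libraries, 147 to 155 TPM in replicate 1 and 151 to 158 TPM in replicate 2, so that interval was not used to place it.

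Among the PBX genes, Pbx3 (chr2:34171457-34373142, minus strand), which is required for breathing control by hindbrain neurons in mice, was at 77.1 and 76.7 TPM in replicates 1 and 2. The 2 libraries gave nearly the same value. Pbx4 (chr8:69832491-69872292, plus strand), a gene known for expression in the testis, was at 38.5 and 34.4 TPM. Pbx2 (chr17:34591266-34597400, plus strand), widely expressed in embryos and dispensable in mice when lost alone, was at 15.2 and 14.1 TPM and below each of the other genes in both libraries.

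The PREP genes were close to each other. Pknox1 (chr17:31564734-31607693, plus strand) codes for PREP1, a partner of PBX that mouse embryos need to survive, and was at 33.5 and 36.3 TPM. Pknox2 (chr9:36890982-37147407, minus strand), which codes for PREP2, was at 36.5 and 37.3 TPM. In the order of levels, Pknox2 was not apart from Pbx4, nor Pbx4 from Pknox1, since their libraries overlapped. Every other pair of neighbours in that order was apart in these libraries.

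The order changed with the measure. As CPM, the reads of a gene scaled to the library's total on mouse genes with no length correction, Meis1 came first with 266 in replicate 1 and 265 in replicate 2. Meis2 followed with 202 and 170 CPM, and Meis3 with 154 and 157 CPM. Pbx3 was at 115 and 111 CPM, Pknox1 at 74.1 and 79.3 CPM, Pknox2 at 75.4 and 75.2 CPM, and Pbx2 at 24.2 and 22.2 CPM.

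Pbx4 was lowest by reads, at 14.9 CPM in replicate 1 and 11.99 CPM in replicate 2, although by TPM it stood beside the Pknox genes. Its 472 expected counts in replicate 1 and 402 in replicate 2 were divided by a short effective length, 617 and 566 nucleotides, against 2529 and 2556 nucleotides for Pbx2.

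**Figure D2:**
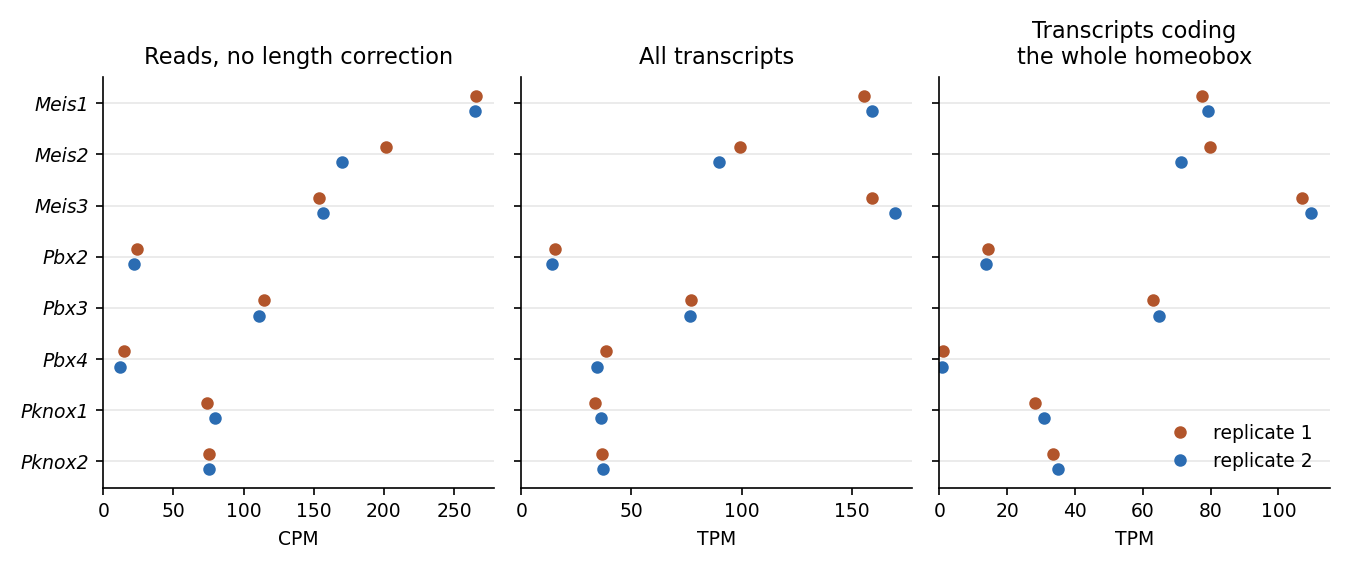
Levels of each gene (rows) in replicate 1 (upper point) and replicate 2 (lower point) as CPM, as TPM of all transcripts, and as TPM of the complete coding transcripts, which code the whole homeobox. Pbx4 lies beside the Pknox genes by TPM of all transcripts and near 0 by complete coding transcripts.

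The deposited transcript values split each gene into forms, and M21 gives each form a type. A complete coding transcript here is a protein-coding one whose annotated ends are not marked as incomplete. Over the 8 genes, its median share was 81.1% of the gene's transcript abundance in replicate 1 and 82.1% in replicate 2. The medians over 8079 protein-coding genes with 2 or more transcripts and at least 5 TPM in both libraries were 85.4% and 86.1%. Meis1 and Pbx4 were under 50% in both libraries, a share that 14.5% of those genes were under. Meis1 was so by a small margin, at 49.85% and 49.9%. By the deposited posterior means it was at 50.25% and 50.62%, so its place under 50% depended on the estimate. Pbx4 was also under 10% in both, as were 1.50% of those genes.

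**Figure D3:**
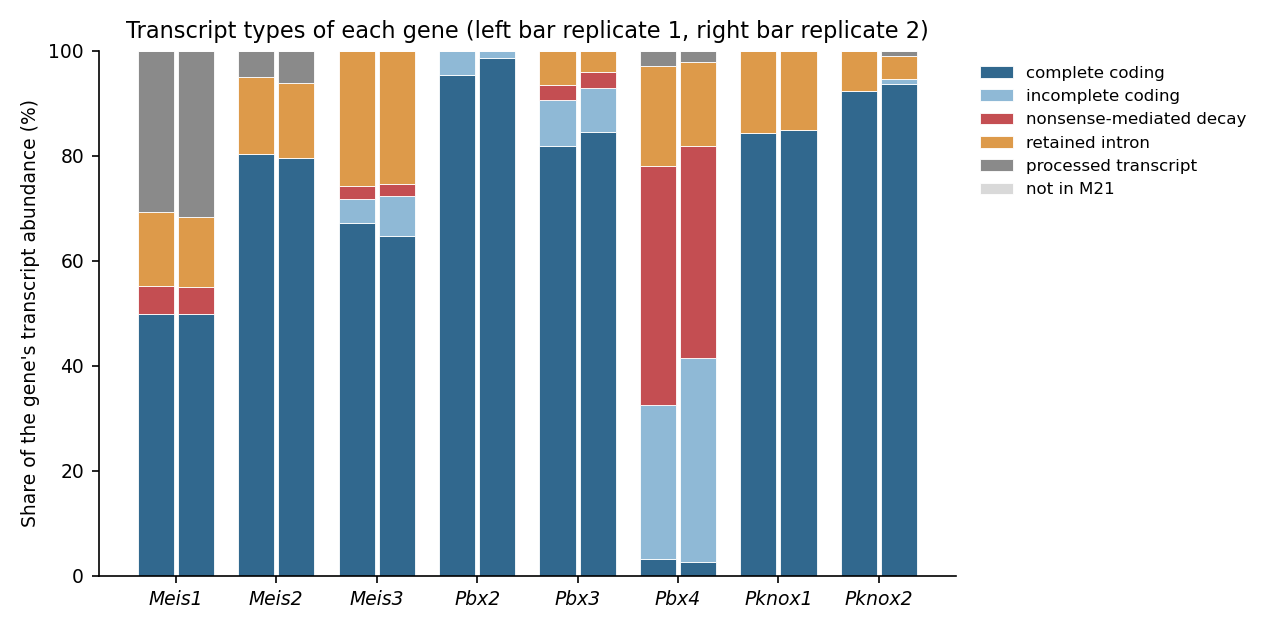
Share of each gene's transcript abundance (percent, vertical axis) by annotated transcript type, with replicate 1 as the left bar and replicate 2 as the right bar. Pbx4 has 3.09% and 2.59% in complete coding transcripts, Meis1 close to 50%, and Pbx2 over 95%.

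Only 1 of the 9 Pbx4 transcripts, Pbx4-201, is a complete coding one. It held 3.09% of Pbx4 in replicate 1 and 2.59% in replicate 2, or 34.6 and 26.8 expected counts. Transcripts annotated for nonsense-mediated decay, a pathway that degrades mRNA with early stop codons, held 45.6% and 40.3%. The incomplete coding transcript Pbx4-202, of 375 nucleotides, held 29.4% and 38.9%, and transcripts with a retained intron 19.1% and 16.2%.

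The Pbx4 forms differ at the third of its 8 coding exons, chr8:69864312-69864550 on the plus strand, with 239 bases and thus not a multiple of 3. The 4 other forms with an annotated frame from the same first coding exon lack it. Pbx4-201 was 3.96% of these 5 forms in replicate 1 and 3.17% in replicate 2. These shares are corrected for length. By expected counts the forms without the exon held 353 and 309, against 34.6 and 26.8 for Pbx4-201, so its part was larger by counts. No gene in M21 overlaps Pbx4.

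In Meis1, the coding form Meis1-201 held 45.6% in replicate 1 and 47.3% in replicate 2. The second form was Meis1-203, with 30.7% and 31.6%, which M21 lists as a processed transcript without a coding frame. Meis1-203 contains all bases of the homeobox, and the forms that contain them, coding or not, held 83.9% and 85.5% of Meis1. Complete coding forms of Meis1, all of which code the whole homeobox, held 49.9% in both libraries. Other types were not searched for such a frame. Among them is Meis1-202, annotated for nonsense-mediated decay, which contains the homeobox bases and held 3.44% and 3.95%.

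Meis3 was split between Meis3-201 with 50.2% in replicate 1 and 50.3% in replicate 2, the retained-intron form Meis3-202 with 18.0% and 17.7%, and the coding form Meis3-205 with 16.9% and 14.5%. In each of these the libraries differed by less than 3 percentage points. In Pknox1, Pknox1-201 held 77.7% and 79.6%, and the retained-intron form Pknox1-206 held 10.2% and 9.14%.

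Every complete coding transcript of the 8 genes codes the whole homeobox, and transcripts of other types were not searched for such a frame. Summed over the complete coding transcripts, Meis3 was at 107 TPM in replicate 1 and 110 TPM in replicate 2. Meis2 was at 79.7 and 71.3 TPM and Meis1 at 77.6 and 79.4 TPM, so on this measure their libraries overlapped. Pbx3 was at 63.1 and 64.9 TPM, Pknox2 at 33.7 and 34.9 TPM, Pknox1 at 28.2 and 30.8 TPM and Pbx2 at 14.5 and 13.9 TPM. Pbx4 was lowest, at 1.19 and 0.89 TPM. These forms made up 65.8% of the summed TPM of the 8 genes in both libraries, and the PREP share of them was 15.3% and 16.2%.

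The MEIS genes end in alternative carboxy-terminal tails, a part of MEIS proteins known to take part in activating transcription. The last coding exon of the short tail is printed to show how alike the 2 genes are there. It has 56 bases, of which 53 (94.6%) are the same in Meis1 and Meis2, and capitals mark the 3 that differ.
Meis1-201: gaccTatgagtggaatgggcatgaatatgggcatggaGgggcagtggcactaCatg
Meis2-206: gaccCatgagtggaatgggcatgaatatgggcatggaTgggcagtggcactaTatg
They lie at chr11:18884027-18884082 and chr2:115866849-115866904, both on the minus strand. Among forms with either tail, the long one made up 24.0% of Meis2 in replicate 1 and 35.3% in replicate 2. The long tail of Meis1 made up 3.90% and 0%, so the libraries of the 2 genes did not overlap. By the deposited posterior means it was 5.10% and 1.13% of Meis1, and 23.8% and 35.3% of Meis2. The 0% is Meis1-209 at 0 counts in replicate 2, whose deposited interval reaches up to 2.57 TPM.

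No form of Meis2 reached 30% in either library. In replicate 1 its highest was Meis2-205 with 25.9%, followed by Meis2-206 with 19.7%, Meis2-203 with 19.0% and Meis2-202 with 10.9%. In replicate 2 the highest was Meis2-203 with 28.1%, followed by Meis2-205 with 24.3%, Meis2-202 with 11.8% and Meis2-206 with 9.25%. By posterior mean the order in replicate 1 was another, with Meis2-206 at 27.3%, Meis2-205 at 16.3% and Meis2-203 at 10.4%, and in replicate 2 Meis2-203 led with 22.9%. In replicate 1 the TPM of Meis2-205 and of Meis2-203, 25.7 and 18.9, lay above their own deposited intervals, which end at 24.5 and 16.3 TPM. The highest Meis2 transcript thus differed between the libraries by either estimate, but which form led in replicate 1 depended on the estimate. In Pbx4, Pbx4-205 led Pbx4-202 in replicate 1 by a small margin, 29.6% against 29.4%, and Pbx4-202 led in replicate 2 with 38.9%. By posterior mean Pbx4-202 led in both libraries, with 29.1% and 38.5%, so the difference in highest transcript was lost. Of 8304 genes with 2 or more transcripts and at least 5 TPM, 7.39% had a different highest transcript in the 2 libraries.

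Meis2 forms also differ in a segment of 21 bases at the start of an exon downstream of the homeobox, at chr2:115867359-115867379 on the minus strand. It is printed in capitals with 9 bases of coding sequence on each side.
Meis2-205: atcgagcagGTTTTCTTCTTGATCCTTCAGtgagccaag
Forms with these 7 codons held 38.2% of complete coding Meis2 in replicate 1 and 38.3% in replicate 2. Forms that begin at the upstream of its 2 first coding exons held 80.8% and 77.4%. The long tail share differed by more than 10 percentage points between the libraries.

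Meis3 has a segment of 51 bases (17 codons) upstream of its homeobox, at chr7:16178951-16179001 on the plus strand, that Meis3-201 includes and Meis3-205 omits.
Meis3-201: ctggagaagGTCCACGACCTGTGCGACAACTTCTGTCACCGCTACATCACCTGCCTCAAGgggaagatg
The form with the segment made up 74.8% of the pair in replicate 1 and 77.6% in replicate 2.

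Pbx3 has an exon of 113 bases downstream of its homeobox, at chr2:34176749-34176861 on the minus strand, not a multiple of 3.
Pbx3-201: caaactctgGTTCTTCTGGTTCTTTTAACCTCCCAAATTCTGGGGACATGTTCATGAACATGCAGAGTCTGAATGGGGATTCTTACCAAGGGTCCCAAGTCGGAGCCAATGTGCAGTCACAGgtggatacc
Pbx3-201 includes it and has a coding length of 1302 bases, and Pbx3-202 skips it and has 1053. The skipping form was the higher in both libraries, with 57.6% of Pbx3 in replicate 1 and 54.4% in replicate 2, and Pbx3-201 had 24.3% and 30.2%. Inclusion was thus 29.6% and 35.7% of the pair.

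**Figure D4:**
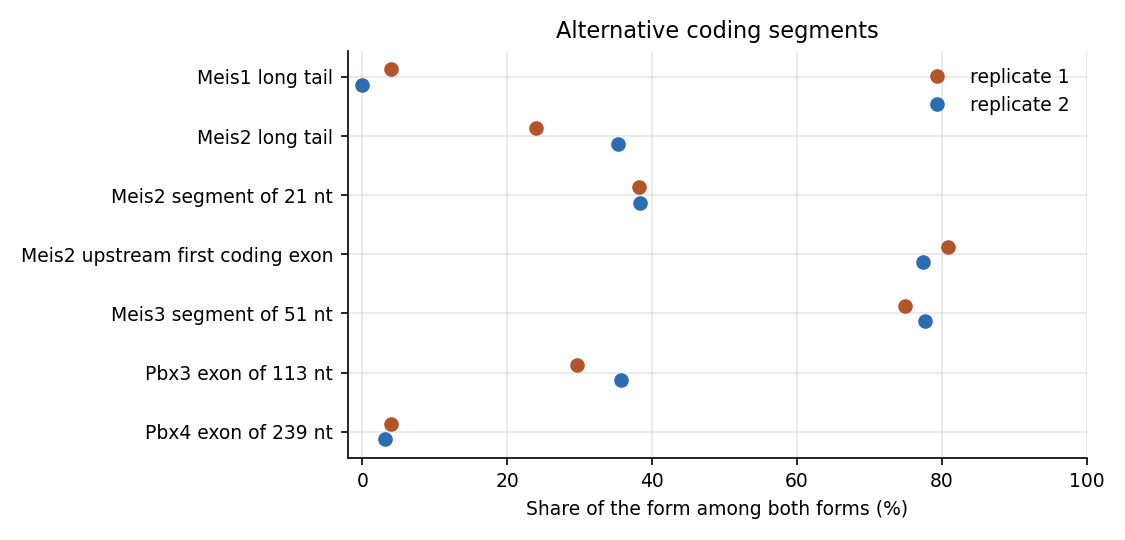
Share of 1 form among both forms (percent, horizontal axis) for 7 alternative coding segments, with replicate 1 as the upper point and replicate 2 as the lower point. The Meis2 segment of 21 nucleotides has 38.2% and 38.3%, and the Meis2 long tail lies apart between libraries at 24.0% and 35.3%.

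Pbx2 and Pknox2 were each mostly complete coding. Pbx2-201 held 65.1% of Pbx2 in replicate 1 and 64.5% in replicate 2, and the shorter coding form Pbx2-203 held 30.2% and 32.7%. Pknox2-201 held 58.6% and 67.6%, and Pknox2-202 held 32.1% and 26.0%. Both Pknox2 forms have a coding length of 1422 bases.

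None of the 8 genes differed over 2-fold between the libraries, against 1.43% of the 15735 genes that averaged 1 TPM or more. As log2 ratios of TPM + 1, with replicate 1 on top, the values ran from 0.16 for Pbx4 to -0.11 for Pknox1, and were 0.14 for Meis2, 0.10 for Pbx2, 0.01 for Pbx3, -0.03 for Meis1 and Pknox2, and -0.09 for Meis3. Their median was -0.01, and that of all genes -0.03. By TPM 4 of the 8 were higher in replicate 1 and 4 in replicate 2, against 6487 and 9204 of the 15735 genes. Under each of the 3 scalings of counts 6 of the 8 were higher in replicate 1, since Meis1 and Pknox2 turned from -0.03 to just above 0. The median of all genes also moved up under those scalings, to between -0.01 and -0.0001.

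Meis2 was the 1 gene of the 8 whose deposited TPM intervals did not overlap, 96.0 to 106 TPM in replicate 1 and 86.5 to 95.6 TPM in replicate 2. The intervals of Meis1 counted as overlapping, although they did not hold its deposited TPM. Intervals were apart for 14.3% of genes, which were not checked for whether their intervals hold their TPM. Its count ratio was 0.25 on the log2 scale (exact 95% binomial interval 0.20 to 0.30, counting error only). That of Pbx4 was 0.32 (0.12 to 0.51) and that of Pknox1 -0.10 (-0.18 to -0.02). Among genes of 30 to 100 TPM, the SD of the log2 ratio was 0.13, so the TPM ratio of Meis2 was close to 1 SD of genes at its level. The median size of that ratio, leaving out its sign, was 0.08 among these genes, below that of Meis2. The count ratios were not set against those of other genes.

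**Figure D5:**
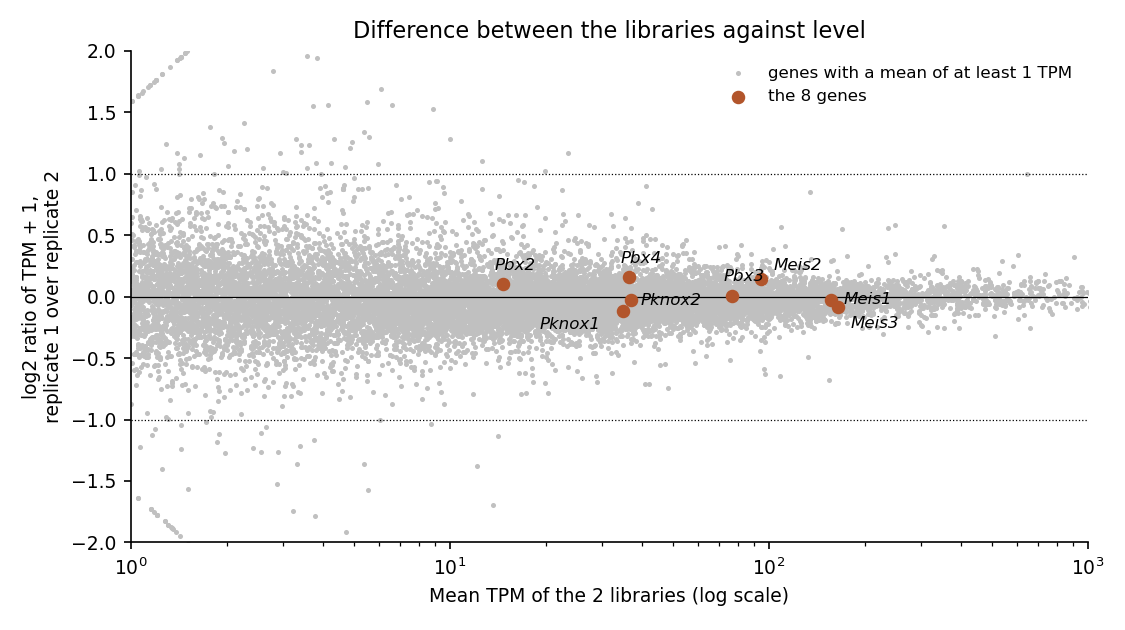
The log2 ratio of TPM + 1, replicate 1 over replicate 2, against mean TPM on a log axis for genes averaging 1 TPM or more (grey), with the 8 genes in colour. The 8 lie between -0.11 and 0.16, inside the dotted lines of a 2-fold difference, and 182 genes fall outside the axes.

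All 8 neural progenitor and all 8 neuron markers listed were detected, with Fabp7 at 1469 and 1537 TPM and Tubb3 at 1004 and 1030 TPM. The 6 muscle markers summed to 358 TPM in replicate 1 and 260 TPM in replicate 2, and all 6 were higher in replicate 1. The 8 sensory ganglion markers summed to 416 and 592 TPM, and all 8 were higher in replicate 2, as were 7 of 8 neuron markers. Isl1 was the highest of the 8 ganglion markers, at 110 and 156 TPM. Whether these 8 mark ganglion cells alone was not tested. Erythroid, fibroblast and endothelial markers were present too, and no marker on these lists was at 0. The part of these tissues in the levels of the 8 genes and in their differences between the libraries was not tested.

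The use of strand in counting is not known from the sources, so reads of a gene and of an antisense gene on the same bases cannot be told apart. The M21 bodies of 5 genes lie within Meis1, the highest of them the antisense gene Gm16141 at 22.3 TPM in replicate 1 and 20.0 TPM in replicate 2, with no exon shared. Gm16140, also antisense, and Gm37818, on the same strand as Meis1, share exonic bases with it. They were at 5.50 and 2.82 TPM and at 2.58 and 2.15 TPM. Gpsm3, on the same strand as Pbx2, shares exonic bases with it and was at 4.53 and 3.43 TPM. For Gm37818 and Gpsm3, strand would not tell apart reads on the shared bases. The antisense gene C79798 within Pbx3 was at 0.56 and 0.37 TPM. Within Pknox1, Gm24970 was at 0 in both libraries, and AC166575.1 has no values in these data. The antisense gene AC166172.4 overlaps the start of Pknox1 with shared exonic bases and has no values either. Within Pknox2, the antisense gene Gm3896 was at 0.47 and 0.42 TPM, and n-R5s82 had 1 count in replicate 1 and 0 in replicate 2. Gm48716 and Gm48717, also within Pknox2, have no values in these data. Meis2, Meis3 and Pbx4 have no overlapping gene in M21.

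The rest of the TALE class was lower. The 9 other TALE genes were all detected, with a median of 15.5 TPM in replicate 1 and 17.6 TPM in replicate 2. The highest were the repressor genes Tgif2, at 50.4 and 51.0 TPM, and Tgif1, at 43.4 and 47.3 TPM, followed by Irx2 at 26.7 and 25.6 TPM and Irx3, a spinal progenitor patterning gene, at 20.0 and 17.7 TPM. Mkx was at 4.80 and 3.96 TPM. Thus 4 of the 8 cofactor genes lay above the highest of these.

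The proteins known to bind these cofactors were all 13 detected by their mRNA. The corepressor genes Ncor1, at 159 TPM in replicate 1 and 166 TPM in replicate 2, and Hdac1, at 148 and 159 TPM, were near the level of Meis1. The coactivator gene Crebbp was at 33.8 and 33.1 TPM. Pbxip1, whose product binds PBX and is known in human cells to hinder its binding with Hox, was at 12.5 and 13.7 TPM, and Zfp462 at 15.3 and 12.4 TPM.

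Of the 39 Hox genes, the main DNA-binding partners, 36 were detected in both libraries, with a median over the 39 of 29.1 TPM in replicate 1 and 26.4 TPM in replicate 2. Hoxa13, at 1.1 and 0.08 TPM, Hoxb13, at 6.28 and 0.87 TPM, and Hoxd13, at 2.02 and 0.47 TPM, reached 1 TPM in replicate 1 only. Hoxb6 was at 120 and 125 TPM and Hoxa9 at 103 and 109 TPM. Of 5 other homeodomain partners 2 were detected. Pax6, a neural progenitor gene and MEIS partner, was at 21.1 and 19.7 TPM, and En1 at 3.21 and 3.47 TPM. The other 3 were near 0, with Otx2, a forebrain and midbrain gene, at 0.07 TPM in both libraries, En2 at 0 and 0.04 TPM, and Pdx1 at 0 in both. Which part of the neural tube the pools hold was not tested.

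All 8 genes listed as described targets of the complexes were detected, with a median of 25.3 TPM in replicate 1 and 19.8 TPM in replicate 2. Hoxb2, whose hindbrain enhancer binds PBX and MEIS or PREP, was at 97.8 and 90.1 TPM, and Hoxa2 at 29.2 and 22.1 TPM. Aldh1a2, a retinoic acid synthesis gene, was at 75.0 and 83.2 TPM, and Foxp1, a gene of limb motor neuron identity, at 69.5 and 76.1 TPM. The 6 Hox genes of this list were all higher in replicate 1 and the other 2 in replicate 2. Over the whole Hox list, 29 genes were higher in replicate 1 and 9 in replicate 2, of the 38 that averaged 1 TPM or more, against 6487 and 9204 of all such genes. The direction was not the same for all Hox numbers. The 3 such genes numbered 13 were over 2-fold higher in replicate 1, and all genes numbered 6 or 7 were higher in replicate 2. The cause was not tested.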

How the data were processed

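Per the labels, total RNA of 2 pools of E12.5 neural tube was sequenced, and the title marks the series as superseded by a later one, not used here. The authors deposited, per the file headers, expected counts (estimated reads, not whole), TPM, FPKM, and the percent of each transcript within its gene, with posterior-mean versions. The deposited TPM interval bounds, whose level is not stated, were used as a score to see whether libraries overlap, per the file headers. The deposited read-me names mm10 and GENCODE M4. The program and the use of strand are not given in the sources used here. Nothing in the labels says that the pools share no litter, and both carry the same donor identifier.

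Names, types and positions (1-based) came from GENCODE M21 on GRCm38, by identifier without version. Of the 80 transcripts of the 8 genes, 79 were matched and 73 had the same length. CPM was scaled to the expected counts on mouse genes. For a gene, a count of 0 allows up to 3 counts, 0.0949 CPM in replicate 1 and 0.0895 CPM in replicate 2. This floor was not applied to transcripts, where the deposited interval of a 0 can reach higher, as for Meis1-209 (2.57 TPM in replicate 2). The floors and the binomial intervals cover counting error only. Ratios used a pseudocount of 1 TPM. Over 17627 genes the libraries' chi-square was 7.36 per degree of freedom, so they are not 1 library deposited 2 times. Scaling used edgeR 4.0.16 and DESeq2 1.42.0 in R 4.3.3. Other steps used Python 3.11.15. The ratio step was also run on counts simulated with known folds and counting error only. That run checks the calculation, and not the spread between these libraries.

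With 1 group of 2 libraries no p-value was computed. The 8 genes and all lists were chosen with earlier results of these data known, and the splice segments after their values were seen. Named were all 8 genes, transcripts of at least 10% in either library, the highest 2 and up to 2 genes under 1 TPM per role of each list, and overlapping genes. Not all of these are given.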

Additional observations from a re-analysis of the deposited data

How the results depend on the processing

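All 8 genes were detected under each of 6 alternatives (0.5 TPM, 5 TPM, posterior mean TPM, CPM, and leaving out each library). By CPM the shares were 66.8% MEIS, 16.5% PBX and 16.7% PREP, against 67.6%, 20.8% and 11.6% by mean TPM. Over complete coding transcripts, which code the whole homeobox, they were 64.7%, 19.5% and 15.7%, an alternative chosen after seeing the data. By posterior mean TPM the MEIS share was 67.2%. Leaving out a library gave 67.4% to 67.8% for MEIS, 20.3% to 21.3% for PBX, 11.4% to 11.9% for PREP, and 57.0 to 57.8 TPM for the median gene. That median was 95.1 by CPM and 34.6 by FPKM, which are other units. The median log2 ratio, replicate 1 over replicate 2, was 0.022 by CPM, 0.032 under TMM and 0.021 under DESeq2 size factors, against -0.01 by TPM. All genes had medians of -0.01, -0.0001 and -0.01 under those 3, and the cause of the shift was not tested. By posterior mean percent, 7 genes in place of 6 had the same highest transcript in both libraries, the added gene being Pbx4. In replicate 1 Meis2-203 was then 10.4%, against 19.0%, Meis2-205 16.3%, against 25.9%, and Meis2-206 27.3%, against 19.7%. No paired analysis was possible because there is 1 group. The share of Pbx4-201 rests on few expected counts, 34.6 and 26.8. That of Meis1-209 rests on 186 and 0 expected counts, and the cause of this difference was not tested.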
